A study of Mus musculus with 5 samples.

Results

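The peaks described here were called in mouse cortex with 1 antibody against NEUROD2, above a minimum score, and overlapped no peak of 2 others. They were chosen by their measured values. A peak of antibody 1 (ab1) on chromosomes 1 to 19, X or Y was taken if its score was at least 100 and if it shared no base with any peak of antibody 2 (ab2) or antibody 3 (ab3). The score is 10 times the −log10 of the p-value given by the peak caller. By this rule 5695 of 51841 ab1 peaks were members, which is 16.8% of the 33823 ab1 peaks with a score of at least 100 on these chromosomes, and they were among 94621 deposited peaks of all 3 antibodies. The lists of ab2 and ab3 held 35310 and 7470 peaks. Overlap was decided mostly by ab2, since 5713 peaks were members with ab3 left out. The other 28128 ab1 peaks with such a score overlapped an ab2 or ab3 peak and are called shared peaks here.

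Chromatin came from the cerebral cortex of BALB/c mouse embryos at E14.5 and was precipitated with ab1, ab2 or ab3, or with 1 of 2 antibodies against GFP, a jellyfish protein, as controls. The labels name no transgene and no treatment for any group. Each library was made from the pooled cortices of embryos of several mothers, so that all cell types of the dissected cortex were mixed. Each antibody had 1 library. The ab1 antibody was raised in mouse and its peaks were called against the GFP library of the mouse antibody, whereas ab2 and ab3 were raised in rabbit and shared the GFP library of the rabbit antibody. Antibody, host species and control library therefore cannot be told apart, and intervals given below cover the counting error over peaks only. Because score and overlap defined the members, values of score, width and distance to ab2 and ab3 peaks are given as a description, and only sequence and position in the genome, which the rule did not use, were compared with the shared peaks. A difference is said to hold where its 95% interval leaves out 0.

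NEUROD2 is a basic helix-loop-helix (bHLH) transcription factor of differentiating excitatory neurons of the cortex. It pairs with a ubiquitous E protein, and the pair contacts the E-box, whose core is CANNTG. The extended E-box counted here has G or T in the third place of the core and A or C in the fourth, and G or T after the core, on either strand. Its cores are therefore CAGCTG and CATATG, which read the same on both strands, and CAGATG, whose opposite strand reads CATCTG. Most promoters of broadly expressed genes lie instead in CpG islands, GC-rich stretches in which the dinucleotide CG has not been lost.

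Both kinds of sequence were found at the highest-scoring members. The central 200 bp of the 3 highest-scoring members with an extended E-box and of the 3 without one, each outside annotated coding and untranslated exons, are shown to let these be compared (reference sequence of GRCm38, which is mm10, from RefSeq, plus strand, named by the closest protein-coding gene). In the first 3, capitals mark the cores of extended E-boxes.
Dbn1, chr13:55487065-55487264: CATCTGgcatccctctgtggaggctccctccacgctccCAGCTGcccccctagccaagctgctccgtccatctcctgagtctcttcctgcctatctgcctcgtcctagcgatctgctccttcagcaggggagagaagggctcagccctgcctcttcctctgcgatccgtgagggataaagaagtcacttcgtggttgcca
Atxn1, chr13:45964535-45964734: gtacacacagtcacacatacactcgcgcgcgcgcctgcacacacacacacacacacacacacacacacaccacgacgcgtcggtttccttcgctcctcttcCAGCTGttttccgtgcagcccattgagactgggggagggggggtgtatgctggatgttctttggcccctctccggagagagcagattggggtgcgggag
Smad3, chr9:63756873-63757072: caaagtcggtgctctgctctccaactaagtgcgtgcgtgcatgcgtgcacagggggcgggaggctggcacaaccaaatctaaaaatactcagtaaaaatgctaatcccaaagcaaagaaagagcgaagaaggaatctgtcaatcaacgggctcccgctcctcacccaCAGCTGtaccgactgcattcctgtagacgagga
In the next 3, capitals mark the dinucleotide CG.
Kmt2a, chr9:44881721-44881920: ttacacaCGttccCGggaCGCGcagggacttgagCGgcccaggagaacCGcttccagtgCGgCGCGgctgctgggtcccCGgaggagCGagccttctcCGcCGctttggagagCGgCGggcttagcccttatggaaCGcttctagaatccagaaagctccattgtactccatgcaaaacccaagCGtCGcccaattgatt
Sp3, chr2:72979777-72979976: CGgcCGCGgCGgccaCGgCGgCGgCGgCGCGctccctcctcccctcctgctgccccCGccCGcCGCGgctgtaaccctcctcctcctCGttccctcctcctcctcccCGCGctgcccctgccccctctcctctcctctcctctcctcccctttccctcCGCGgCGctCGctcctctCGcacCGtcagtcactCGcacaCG
Hes5, chr4:154957857-154958056: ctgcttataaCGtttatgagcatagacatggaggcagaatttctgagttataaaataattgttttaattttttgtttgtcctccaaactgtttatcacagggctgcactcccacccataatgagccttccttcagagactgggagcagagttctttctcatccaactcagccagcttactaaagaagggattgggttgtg
The windows near Dbn1, Atxn1 and Smad3 held 2, 1 and 1 extended E-boxes, 3 of these 4 with the core CAGCTG. They also held 7, 13 and 10 CG dinucleotides, which are not marked, at a GC content of 60.5%, 60% and 52%. An extended E-box and frequent CG can thus lie in the same window. The windows near Kmt2a and Sp3 held 18 and 25 CG dinucleotides at a GC content of 61.0% and 76.0%. The window near Hes5 held neither, with 1 CG, a GC content of 41.0% and no extended E-box, although the peak as a whole contained 3 extended E-boxes outside the central window.

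The strongest members lay at the start sites of genes of many functions. The highest score, 1703.42, belonged to a peak of 3287 bp at chr9:44880178-44883464, whose midpoint was 525 bp upstream of the transcription start site (TSS) of Kmt2a, a histone H3 lysine 4 methyltransferase, in an intron of the overlapping transcript AC061963.1. The next scores were 1355.55 at 569 bp downstream of the TSS of Sp3, which encodes a zinc finger factor that binds GC boxes, 1284.55 in an intron of Dbn1, which encodes the actin-binding protein drebrin, and 1134.06 in an untranslated exon of Fnbp1l, which links membranes to actin. A score of 1041.79 was found 2966 bp upstream of Hes5, a bHLH repressor that acts in Notch signalling. Of the 12 members with the highest scores this was the only one whose midpoint was not within 1 kb of the TSS of a protein-coding gene.

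The other members among these 12 were at Rpl27 (score 1009.34), which encodes a protein of the large ribosomal subunit, Hmgn2 (836.49), which encodes a nucleosome-binding protein, and Fzd2 (819.11), which encodes a WNT receptor. They were followed by Pgs1 (791.66), which encodes an enzyme of cardiolipin synthesis, Soga1 (777.15), Atxn1 (775.33), which encodes ataxin-1, and Basp1 (750.16), which encodes a membrane protein of growth cones. Of these 12 central windows 8 were CpG-rich (GC content of at least 55% and a ratio of observed to expected CG of at least 0.6), and 3 held an extended E-box. Among the 100 members with the highest scores 67 were within 1 kb of a coding TSS, 70 were CpG-rich and 24 held an extended E-box.

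Strength and width varied widely among the members. Their scores ran from 100.02 to 1703.42 with a median of 135 (quartiles 114.6 and 172.2), against a median of 333.1 for the shared peaks. Median widths were 676 bp and 807 bp. In the band of scores from 100 to under 150 members made up 44.5% of ab1 peaks (3557 beside 4432 shared peaks), and in the band of 300 and over 1.45% (226 beside 15319 shared peaks). The 226 members of the top band were wide, with a median of 1436.5 bp against 922 bp for shared peaks of that band, while in the lowest band both medians were close (638 and 650 bp).

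Single peaks on either side of the score threshold are given as a description. The 3 members with the lowest scores lay 57195 bp upstream of ccdc198 (100.02), 52091 bp upstream of Shisal1 (100.03, with 3 extended E-boxes in its centre) and 217 bp downstream of the TSS of Thtpa (100.04, CpG-rich). The 3 ab1-only peaks with the highest scores below the threshold, all at 99.99, lay 397499 bp downstream of the TSS of Hsfy2, 129 bp downstream of that of Casc4 (CpG-rich) and 3438 bp downstream of that of Lsm10. Each of these 2 sets of 3 held 1 peak with a CpG-rich centre.

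Few members were near misses of an ab2 or ab3 peak. The gap to the closest ab2 or ab3 peak had a median of 13345 bp and ranged from 4 bp, at a member in Ccnjl, to 1668249 bp. A gap of at most 100 bp was measured for 55 members (0.966%) and one of at most 1000 bp for 508 (8.92%). Of the 12 members with the highest scores, that of Dbn1 had a neighbour within 1000 bp, with a gap of 404 bp, and the gap was 24614 bp at Kmt2a and 47261 bp at Basp1. Members with a gap of at most 1000 bp held an extended E-box in 58.3% of their centres and lay within 1 kb of a coding TSS in 10% of cases. For the rest these shares were 51% and 24.3%. No test was made of this split, since overlap with these peaks chose the members.

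Members were at gene starts more often than shared peaks were. The midpoint lay within 1 kb of the TSS of the longest transcript of a protein-coding gene in 1312 of 5695 members (23%, 95% Wilson interval 22 to 24.1) and in 3491 of 28128 shared peaks (12.4%, 12 to 12.8). The difference was 10.6 percentage points (95% Newcombe interval 9.48 to 11.8). Weak ab1-only peaks, with a score under 100, had a share of 12.3%, and the 2645 peaks of ab2 that overlapped no ab1 or ab3 peak had 14.7%, each lower than that of the members by an interval that left out 0 (9.49 to 11.9 and 6.53 to 10 points). The excess was concentrated close to the TSS: 20.4% of members and 10.9% of shared peaks lay under 0.5 kb away, whereas 6.06% and 5.01% lay at 1 to 5 kb.

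**Figure D1:**
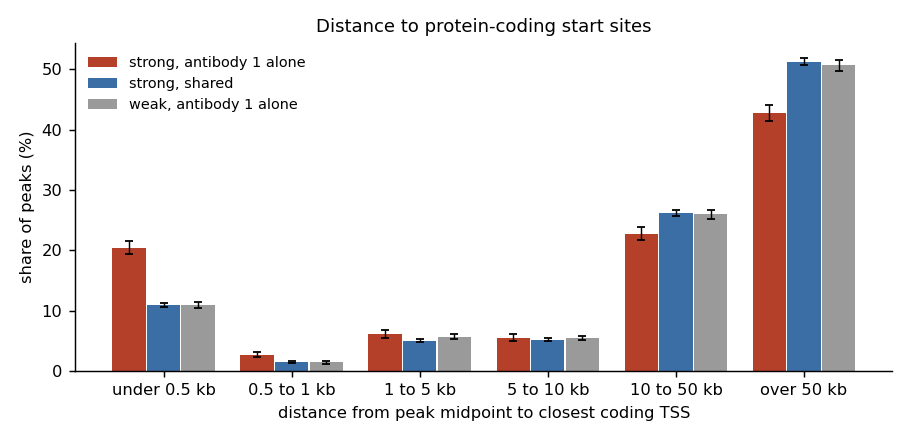
Share of peaks (%, y axis) by distance from the peak midpoint to the closest coding TSS (x axis), for strong ab1-only, strong shared and weak ab1-only peaks. Bars start at 0 and error bars are 95% Wilson intervals. Members exceed both other sets in the bin under 0.5 kb (20.4% against 10.9% in each) and fall below them over 50 kb.

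Within these promoters members sat mostly just inside the gene, as the shared peaks did. Of the 1312 members within 1 kb of a coding TSS, 987 had their midpoint downstream (75.2%, 95% Wilson interval 72.8 to 77.5), with a median position of 130 bp downstream, and 54.9% were on a first exon. For shared peaks the share downstream was 71.9% (70.4 to 73.4) and the median position 110 bp. Of the promoter members 130 were within 1 kb of 2 or more coding TSSs (9.91%, 8.41 to 11.6), so that in all 1441 of 21938 protein-coding genes had a member within 1 kb (6.57%), beside 3839 genes with a shared peak (17.5%). Both kinds of peak were found at 9 genes, a count that is limited because ab1 peaks do not overlap each other and promoter peaks are wide.

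Over gene bodies, untranslated exons held 9.08% of members against 5.29% of shared peaks, and coding exons 5.95% against 3.7%. Introns held 46.5% of members (95% Wilson interval 45.2 to 47.8) and 50% of shared peaks (49.4 to 50.5), and 36.4% and 39.1% were intergenic. The longest transcript of each gene was used, and an exon was given precedence over an intron. Sites more than 10 kb from the TSS of any gene made up 52.5% of members and 62.3% of shared peaks (difference −9.73 points, 95% Newcombe interval −11.2 to −8.32). Most members were thus still far from gene starts.

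The central sequence of members was more often CpG-rich. This was measured in 1421 of 5695 members (25%, 95% Wilson interval 23.8 to 26.1) and in 12.9% of shared peaks (12.5 to 13.3), a difference of 12 points (95% Newcombe interval 10.9 to 13.2). Weak ab1-only peaks had a share of 12.9% and ab2-only peaks one of 15.9%. Median GC content was 52.5% in members and 51% in shared peaks, and in the flanks, 200 bp that begin 1000 bp beyond each end of the peak, 45% in both. At the TSS itself 47.4% of the central 200 bp of all 21938 coding genes were CpG-rich, against 86.4% of the members within 1 kb of one and 78.9% of the shared peaks there.

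The extended E-box was found in fewer members than shared peaks. The central 200 bp held at least 1 in 2939 of 5695 members (51.6%, 95% Wilson interval 50.3 to 52.9), against 22.2% in their own flanks, a paired difference of 29.4 points (95% Wald interval 27.9 to 30.8). Shared peaks had 60.2% (59.6 to 60.8) over flanks of 22.4%, which put members lower by 8.58 points (95% Newcombe interval 7.16 to 9.99). Weak ab1-only peaks stood at 60.5%, above the members by an interval of 7.36 to 10.4 points. Between members and ab2-only peaks, at 52.6%, the difference of −1.02 points had an interval of −3.32 to 1.28 and did not hold.

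These shares differed between score bands far more among members than among shared peaks. From the band of 100 to under 150 through those of 150 to under 200 and 200 to under 300 to that of 300 and over, the share of members at a coding TSS was 17.8%, 25.8%, 35.2% and 55.8%. It was 14.3%, 14.5%, 13.7% and 11% for shared peaks of the same bands. The CpG-rich share of members was 19.5%, 26.7%, 39% and 60.2%, and that of shared peaks 14.8%, 15.3%, 14.6% and 11.3%. The share with an extended E-box ran the other way in members, at 55.6%, 50.6%, 39.6% and 28.3%, and stayed between 59.8% and 61.5% in shared peaks. The difference held in each band and for all 3 features: in the lowest band it was 3.46 points for the TSS (interval 1.84 to 5.1) and −5.49 for the E-box (−7.66 to −3.31), and in the highest 44.8 (38.2 to 51.1) and −31.4 (−37 to −25.2).

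**Figure D2:**
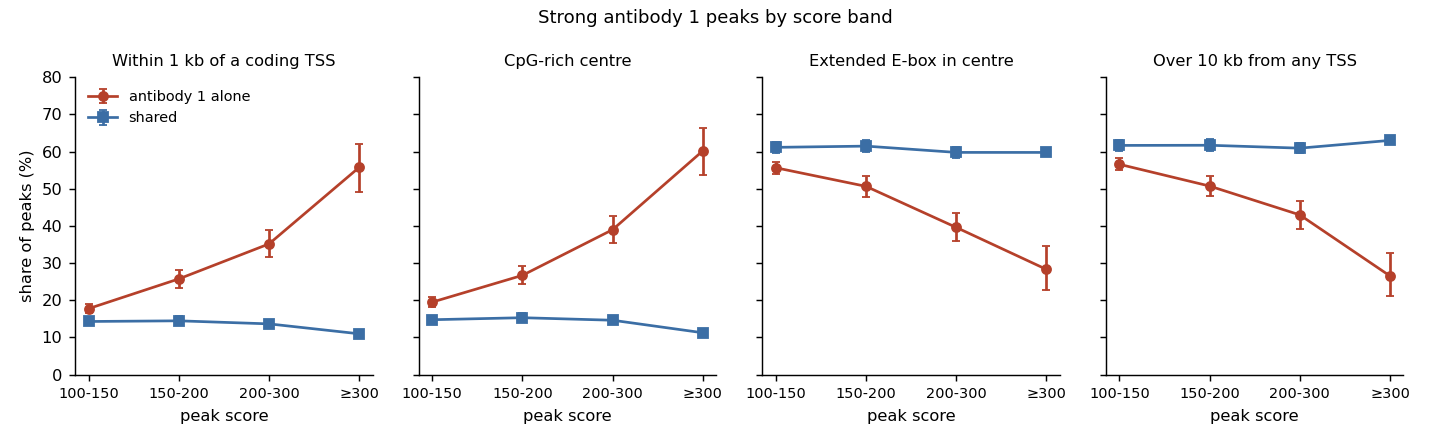
Share of peaks (%, y axis) with each feature in 4 bands of peak score (x axis), for strong ab1-only peaks (3557, 1258, 654 and 226 peaks from left to right) and shared peaks (4432, 3466, 4911 and 15319). Error bars are 95% Wilson intervals. The shared peaks stay nearly level, whereas members reach 55.8% at a coding TSS and fall to 28.3% with an extended E-box in the top band.

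Members fell into groups that differed in sequence. The 2991 members more than 10 kb from any TSS held an extended E-box in 65.1% of centres (95% Wilson interval 63.4 to 66.8) against 22.5% in their flanks. Shared peaks at such distances had 66.6%, and over all scores the difference of −1.52 points did not hold (95% Newcombe interval −3.38 to 0.313). Scores differed, however, with medians of 131 in members and 340.7 in shared peaks at these distances. Of these distant members 3.51% were CpG-rich, at a median GC content of 49.5%. The 1392 members up to 10 kb from a TSS of any gene, but with no coding TSS within 1 kb, had an E-box share of 59.2% against 62.4% in shared peaks, a difference of −3.18 points that held (interval −6.02 to −0.389). Among these nearer members 13.1% were CpG-rich, against 7.72% of the shared peaks there. From the lowest score band to the highest, members more than 10 kb from any TSS had an E-box share of 66.6%, 62.1%, 63.7% and 55%. Shared peaks there had 69.7%, 69%, 67.4% and 65%, in each band more than members. At 150 to under 200 the 95% Wilson intervals lay apart (58.2 to 65.8 for 638 members, 67 to 71 for shared peaks). Those of the other bands overlapped, and no differences were computed within bands for this group. In the top band, of 300 and over, the intervals were 42.5 to 66.9 for the 60 members and 64.1 to 66 for shared peaks. The 100 members of that band over 1 kb from any coding TSS, a group that can still hold start sites of noncoding genes and of other transcripts, had 48% (38.5 to 57.7) against 63.9% (63.1 to 64.7), and its 90 members whose centre was not CpG-rich had 52.2% (42 to 62.2) against 64.3% (63.5 to 65.1).

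At promoters the sequence was another. Of the 1312 members within 1 kb of a coding TSS, 167 held an extended E-box (12.7%, 95% Wilson interval 11 to 14.6), less than the 20% of their flanks (paired difference −7.28 points, 95% Wald interval −9.63 to −4.93) and beside 15.5% (15.1 to 16) of the 200 bp windows centred on the TSSs of all coding genes. Shared peaks within 1 kb of a coding TSS had 23.3% (21.9 to 24.7), which exceeded the members there by 10.6 points (interval 8.21 to 12.8) and their own flanks, at 20.7%, by 2.64 points (0.949 to 4.32). Weak ab1-only peaks at promoters resembled the members in this: 14.9% (13.2 to 16.7) held an extended E-box, against 21.7% of their flanks (paired difference −6.86 points, interval −9.1 to −4.61). Median GC content was 70.5% in promoter members and 68% in promoter shared peaks. The part of GC content in the E-box difference was not tested beyond the split by CpG richness: among peaks with a CpG-rich centre members had 11.3% and shared peaks 21.1% (difference −9.79 points, interval −11.8 to −7.61), and among all others 65% and 66% (−0.976, interval −2.54 to 0.56). The latter value pools all scores. From the lowest score band to the highest, centres that were not CpG-rich held an extended E-box in 66.4%, 64.2%, 59.4% and 52.2% of members. Shared peaks of this kind had 68.4%, 69.4%, 66.7% and 64.3%, and the 95% Wilson intervals lay apart in each band from 150 upward.

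Promoter members were also wider, with a median of 1211 bp against 605 bp for members more than 10 kb from any TSS. Shared promoter peaks were about as wide, with a median of 1225 bp, and in a wide peak the midpoint can lie farther from the bound sequence. Over whole peaks, a count added after the windows had been examined, promoter members held 0.822 extended E-boxes per kb, against 1.21 per kb in flanks of the same length. Weak ab1-only promoter peaks held 0.795 per kb against 1.24 in flanks, and shared promoter peaks 1.19 per kb against 1.23 in flanks. Distant members held 2.82 per kb and distant shared peaks 2.76 per kb.

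The place of the E-box within the peak followed the same division. In members over 1 kb from any coding TSS, 50 bp bins on either side of the midpoint held 27.6 and 27.9 extended E-boxes per 100 peaks, and the bins that ended 300 bp away held 6.3 and 6.84. Shared peaks had 28.7 and 28.8 beside the midpoint. In members within 1 kb of a coding TSS the bins beside the midpoint held 4.34 and 3.28 per 100 peaks and those that ended 300 bp away 3.96 and 3.66. The mean over the 4 bins within 100 bp of the midpoint was 4.23 in these members, against 3.54 over the 16 bins beyond, a much smaller rise than that from 7.8 to 23.7 in members over 1 kb from any coding TSS. In shared promoter peaks these values were 8.05 and 7.82 in the centre and 6.16 and 5.67 at 300 bp, with means of 7.56 within 100 bp and 5.71 beyond.

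**Figure D3:**
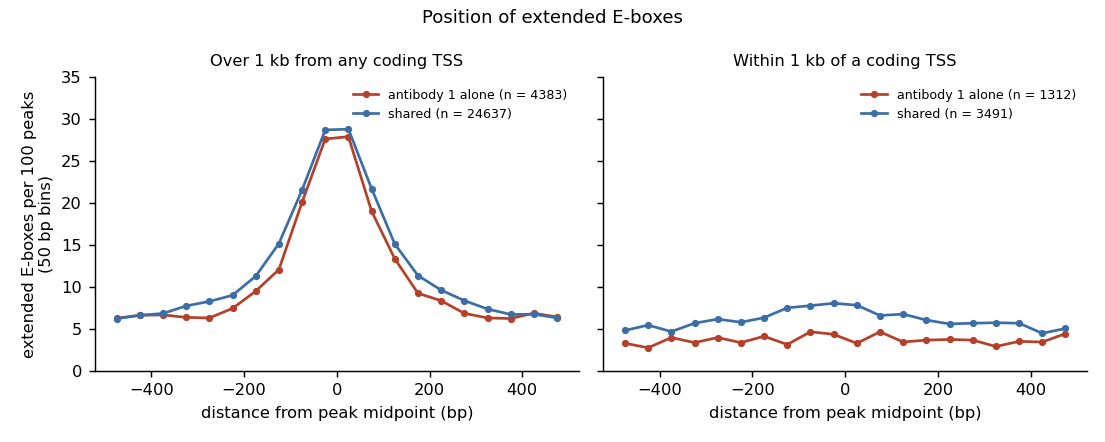
Extended E-boxes per 100 peaks in 50 bp bins (y axis) by distance of the E-box core from the peak midpoint in bp (x axis), for peaks over 1 kb from any coding TSS (left) and within 1 kb of one (right). Over 1 kb from any coding TSS both sets rise to 27.9 (members) and 28.8 (shared) at the midpoint, whereas within 1 kb members average 4.23 within 100 bp of it and shared peaks 7.56.

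E-box cores were not all alike. In members CAGCTG was found in 26.2% of centres and 9.32% of flanks, a ratio of 2.81, and CAGATG in 36.6% and 15.4%, a ratio of 2.38. CATATG had a ratio of 1.67, and CACGTG, which is bound by other bHLH families, one of 1.73. The remaining CANNTG cores had ratios between 0.745 and 1.26. Against shared peaks, members held CAGATG less often by 6.76 points (95% Newcombe interval 5.37 to 8.13) and CATATG by 3.29 points (2.45 to 4.09), and CAGCTG by 2.36 points (1.09 to 3.6). Cores outside the extended E-box were also less frequent, CAAATG by 2.52 points (1.55 to 3.44), CAAGTG by 1.31 (0.404 to 2.16) and CACATG by 1.07 (0.00544 to 2.1). For CACGTG the difference of 0.274 points (−0.258 to 0.857) and for CACCTG that of 0.0345 points (−1.05 to 1.15) did not hold. Over 1 kb from any coding TSS CAGCTG was at 30.3% in members and 29.9% in shared peaks, CAGATG at 45.9% and 47.8%, and CATATG at 11% and 13.4%. Within 1 kb of a coding TSS CAGCTG was at 12.7% and 19.3%, and CAGATG at 5.79% and 12.2%.

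Some members carried many E-boxes, and these were not the strongest. The largest number in a central window was 12, all with the core CAGATG, in an intron of Rftn1, which encodes a lipid raft protein, at chr17:50031931-50032422 with a score of 109.37. An intergenic member 296125 bp from the TSS of Nrcam, which encodes a neuronal cell adhesion molecule, held 9 (score 105.09), 6 with the core CATATG and 3 with CAGCTG, and a member 10188 bp upstream of Cpq also held 9 (100.89). Members closest to C1qtnf3 (200.83) and Tcea1 (179.94, in an intron of Lypla1) held 8 each. In all 1026 members had at least 2 extended E-boxes in the centre (18%, 95% Wilson interval 17 to 19), against 22.3% of shared peaks (21.8 to 22.8).

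Other short motifs were compared in the same windows, on both strands. A GC box (GGGCGG), which Sp factors bind, was in 20.1% of members (95% Wilson interval 19.1 to 21.1), 3.66% of their flanks, 12.4% of shared peaks and 13.1% of all ab1 peaks. The difference from shared peaks was 7.7 points overall (95% Newcombe interval 6.61 to 8.82), 4.07 points among peaks within 1 kb of a coding TSS (0.923 to 7.18) and 2.1 points among the rest (1.25 to 3.01). GC boxes were thus in 58.8% of promoter members, in 54.8% of promoter shared peaks and in 41.1% of windows centred on the TSS of all coding genes. The E2F motif GGCGGGAA, which contains part of a GC box, was rare but more frequent in members, at 1.3% against 0.626% in shared peaks (difference 0.674, interval 0.393 to 1.01).

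The ETS core CCGGAAG was in 2.69% of members and 2.01% of shared peaks (difference 0.674, interval 0.249 to 1.15), but not in more of the promoter members than of the promoter shared peaks (8.08% and 8.65%, interval −2.24 to 1.26). CCAAT was less frequent in members, at 21% against 23.5% (difference −2.46, interval −3.61 to −1.27), and so was the SOX core ACAATG, at 7.29% against 8.3%. The homeobox core TAATTA (5.18% and 6.34%), TATAAA (5.97% and 6.87%) and the AP-1 motif TGANTCA (4.44% and 5.14%) were likewise less frequent by intervals that left out 0. For these 4 motifs, the SOX core included, the difference did not hold within either position group. For the octamer, the CRE, the YY1, T-box, NRF1, NFI, RFX and MEF2 motifs and the CTCF core no difference from shared peaks held over all members. Among peaks within 1 kb of a coding TSS the YY1 motif AAGATGGC was less frequent in members, at 2.59% against 3.95% (difference −1.36, interval −2.37 to −0.19). Each match is a description of letters in a window and not a bound site.

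**Figure D4:**
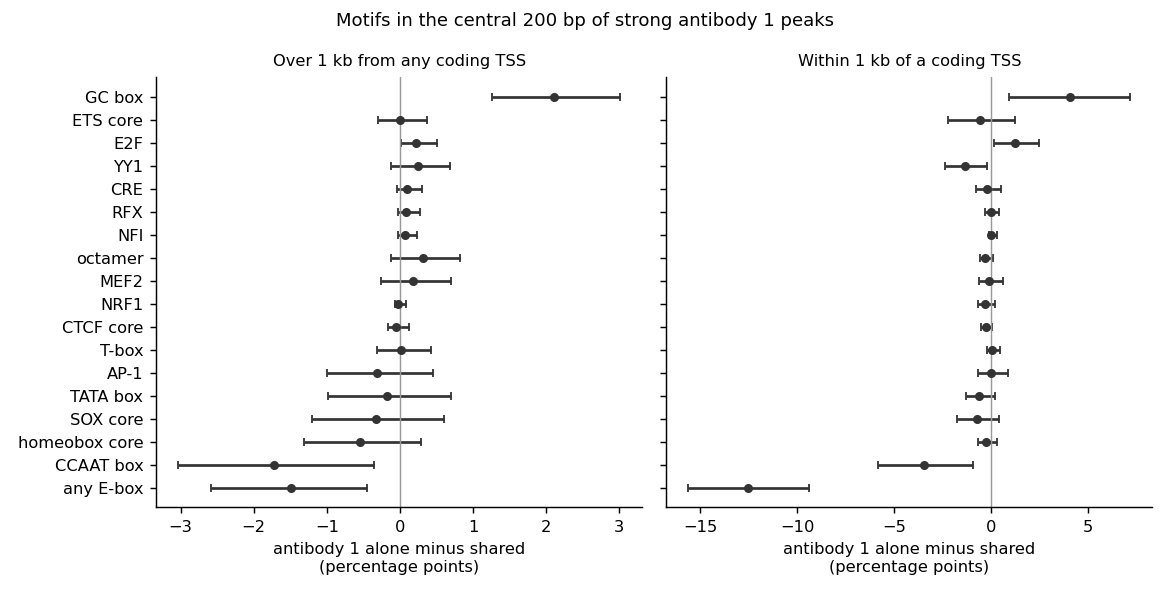
Difference in the share of central 200 bp windows with each motif, strong ab1-only minus shared peaks (percentage points, x axis, with different ranges in the panels), for peaks over 1 kb from any coding TSS (left) and within 1 kb of one (right). Bars are 95% Newcombe intervals. At promoters the E-box core CANNTG lies at −12.5 points and the GC box at 4.07.

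Words of 6 letters gave the same picture without a list of motifs. Among words found in at least 2% of members (either strand), the 5 with the largest ratio of centre to flank were CGGCCG (8.41% of members, 0.386% of flanks, ratio 21.8), CGCGCG (ratio 20), CGCGGC (18.8), CCGCGG (18.5) and CCGCGC (18). Each of them contains the dinucleotide CG at least 2 times. They were in 3.63% to 7.11% of shared peaks, at ratios of members to shared peaks between 2.01 and 2.18. The centre was at least 50% soft-masked in 2.88% of members (95% Wilson interval 2.48 to 3.35) and in 2.51% of shared peaks (2.34 to 2.7), and these intervals overlapped.

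Members were spread over the chromosomes. Their share of the strong ab1 peaks of a chromosome, leaving out Y, was lowest on chromosome 5 (15.5%) and highest on chromosome X (19.4%, 98 members), followed by chromosome 17 (18.6%). They were closest to 3920 protein-coding genes, of which 2847 had 1 member and 75 had 5 or more, and 71.7% of these genes were also the closest gene of at least 1 shared peak, as were 40% of all protein-coding genes. The closest gene is a label of position and not a measured target, and the distance between neighbouring genes, which affects both shares, was not taken into account.

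The genes with most members were closest to shared peaks as well, in differing numbers. Galnt17, which encodes a glycosyltransferase, was closest to 10 members with scores from 110.4 to 408.8, none within 1 kb of its TSS and 7 with an extended E-box, and to 58 shared peaks. The gene 1700010I14Rik was also closest to 10 members, with scores from 109.37 to 371.03 and 1 within 1 kb, and to 18 shared peaks. Klhl29, a member of the kelch-like family, had 8 members, none nearer than 122208 bp, beside 28 shared peaks. Chd6, which encodes a chromatin remodeller, and Sox5, a transcription factor of deep-layer neurons, had 7 each, beside 21 and 24 shared peaks. They were 2 of 11 genes with 7 members and are named for their summed score. Over these 11 genes the number of shared peaks ran from 7, at Arl15, to 46, at Auts2. Of the members near these 5 genes 28 of 42 held an extended E-box (66.7%), beside 63.2% of all members over 1 kb from any coding TSS.

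Members were found at the promoters of several genes of cortical development, beside a larger number of shared peaks. In the list of proneural and neuronal bHLH genes 2 of 18 had a member within 1 kb of the TSS and 12 had a shared peak, against 6.57% and 17.5% of all protein-coding genes. For cortical layer identity the counts were 2 and 9 of 16 genes, for Reelin signalling, which guides migrating neurons to their layer, 3 and 8 of 16, for axon guidance 2 and 20 of 35, and for radial glia and progenitors 3 and 6 of 15. In the control lists they were 2 and 2 of 20 for cytosolic ribosomal proteins, 0 and 1 of 15 for blood and vessel markers, and 0 and 0 of 15 for liver markers. Subpallial and interneuron genes, which mark cells born outside the cortex, also had 0 and 0 of 15. No listed gene had both kinds of peak within 1 kb, and of all 1441 genes with a member 0.625% did. Peaks of ab1 do not overlap each other, and promoter members and promoter shared peaks had median widths of 1211 and 1225 bp. This leaves little room for both kinds within 1 kb of a TSS, so these counts are no result about the genes. Lists of this size were not tested, and in the 4 neuronal lists other than those of progenitors and interneurons shared peaks were found at 49 genes and members at 9.

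**Figure D5:**
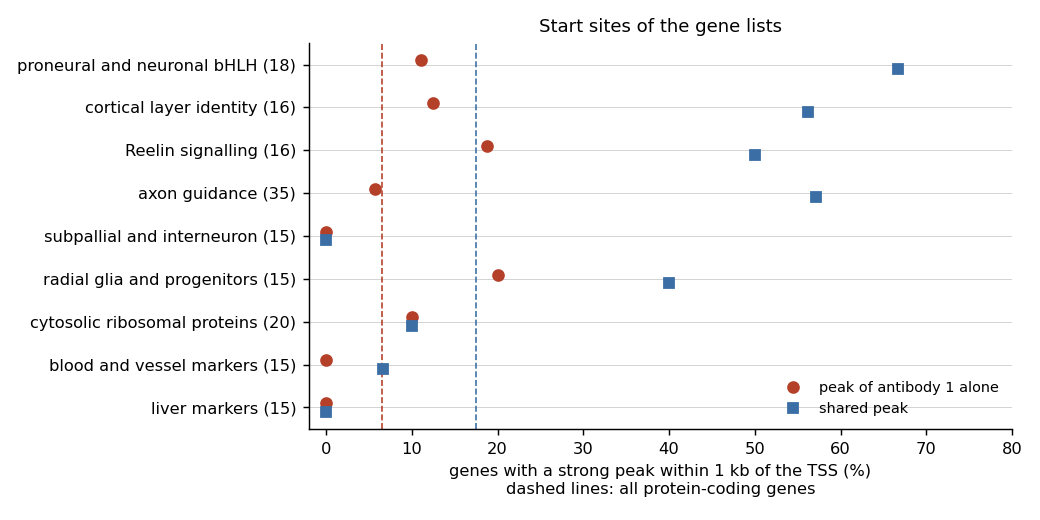
Share of the genes of each list with a strong ab1-only peak (circles) or a shared peak (squares) within 1 kb of the TSS (%, x axis), with the number of genes in parentheses. Dashed lines mark the shares over all protein-coding genes, 6.57% and 17.5%. The neuronal lists lie well to the right of the line for shared peaks and nearer to their line for members.

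The listed promoters with a member can be given singly. Among the bHLH genes Id1, which encodes an inhibitor of bHLH factors that lacks the basic region, had a member of score 163.21 with its midpoint 410 bp downstream of the TSS, 1 extended E-box in the centre and a gap of 562 bp to the closest ab2 or ab3 peak. Atoh7, a factor of retinal ganglion cells, had one of 115.43 with no E-box in the centre. Among layer genes Bcl11b, a factor of subcerebral projection neurons, had a member of 252.01 and Sox5 one of 174.58, the latter 63 bp upstream of the TSS with 1 extended E-box. The paper reports binding at the Bcl11b promoter by quantitative PCR of DNA precipitated with ab2. Whether its primers lie in this member was not examined.

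In the Reelin list Reln itself, the secreted ligand, had a member of 147.01 at a GC content of 82.5% and no extended E-box in the whole peak. Lrpap1, a chaperone of lipoprotein receptors, had one of 152.83 with 2 extended E-boxes in the centre. Pafah1b1, which encodes the dynein regulator LIS1, had one of 402.86 with none in the centre. Among axon guidance genes members were at the receptor genes Plxnc1 (431.32, 319 bp downstream) and Nrp1 (246.91, 360 bp upstream).

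Progenitor genes were represented by Nes, which encodes the intermediate filament nestin (253.05), Emx2, a homeobox factor of the cortical primordium (235.48), and Vim, which encodes vimentin (207.72). The ribosomal protein genes were Rpl7 (191.38) and Rplp1 (123.94). Of these 14 promoter members 3 held an extended E-box in the centre (Id1, Sox5 and Lrpap1), and 12 were CpG-rich, all but those of Sox5 and Nrp1. The smallest gap to an ab2 or ab3 peak after that of Id1 was 2436 bp, at Bcl11b, and the largest 85179 bp, at Nes.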

How the data were processed

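Chromatin immunoprecipitated with 3 NEUROD2 antibodies and 2 GFP antibodies was sequenced as 1 library each. The authors mapped single-end reads to mm10 with Bowtie, discarded duplicate and multiply mapping reads, and ran MACS separately for every antibody, with the GFP antibody from the matching host as control and no pooling. The deposited files give each peak's position and a score, 10 times the −log10 p-value, which is not scaled between libraries and depends on the depth of a library and its control. Reads, coverage and summits were not analysed here, so depth cannot be read from these files (the study lists read numbers per library, which were not used here), and the midpoint stood for the binding site.

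Peaks on chromosomes 1 to 19, X and Y were used (4 ab1 peaks and 1 ab2 peak were left out), and 1 shared base counted as overlap. Sequence was read from GRCm38.p6, the RefSeq release of mm10. It is of strain C57BL/6J, so BALB/c variants were not seen. TSSs and exons came from GENCODE M21, with the longest transcript per gene (21938 protein-coding genes). Windows were 200 bp, and flanks began 1000 bp beyond each end. Motifs were counted once per window, on both strands. Shares have 95% Wilson intervals, differences 95% Newcombe intervals and paired differences 95% Wald intervals. No p-values were computed, since each antibody has 1 library.

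The members, motifs and gene lists were chosen with earlier results of these data known. Named were the 12 highest scores, the 3 peaks on each side of the threshold, the 5 members with most E-boxes, the 5 genes with most members (ties by summed score) and each listed gene with a member at its TSS. The peak with the smallest gap and the genes Auts2 and Arl15 among those with most members were named after their values were seen. Alternatives were other score minima, gaps, windows, motifs, TSS sets and score bands, and 4 splits by position and CpG richness added after seeing the data. Calculations ran in Python 3.11.15 with numpy 2.4.6, pandas 2.3.3 and pysam 0.24.0 and were first tested on simulated data.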

Additional observations from a re-analysis of the deposited data

How the results depend on the processing

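Of 62 alternative values for the 6 quantities compared, 57 kept their direction and an interval that left out 0 (or, for the number of members, stayed within 1.5 times). The number of members was 5187 with no ab2 or ab3 peak within 1000 bp and 5713 with ab3 left out of the overlap, but 2138 at a score minimum of 150 and 880 at 200, since fewer peaks pass. Centre minus flank for the extended E-box, 29.4 points over all members, became −7.28 when only peaks within 1 kb of a coding TSS were kept and −8.66 with only CpG-rich centres. Members minus shared peaks for the E-box was −0.976 among centres that were not CpG-rich, where the interval of −2.54 to 0.56 included 0. That value pools all scores, and in each score band from 150 upward the Wilson intervals of such centres lay apart, with members lower. These splits were added after seeing the data, and the cause was not tested. The other alternatives of members minus shared peaks ran from −31.4 to −2.17 points for the E-box, from 3.46 to 44.8 for the TSS, from 4.73 to 48.9 for CpG-rich centres and from −36.4 to −4.84 for distant sites. No paired analysis was possible because each antibody has 1 library, so libraries could not be paired (centre and flank were paired within peaks). The intervals cover counting error over peaks and say nothing of variation between embryos, precipitations or antibody lots. Depth cannot be read from peak lists, so whether ab2 or ab3 signal lay under the calling threshold at members was not analysed here.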
